A study of Mus musculus with 12 samples.

Results

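The genes described here encode hydrolases and membrane proteins of the lysosome, together with the membrane (V0) subunits of its proton pump, measured in mouse embryonic fibroblasts that lack or carry the protease HtrA2 and that received rotenone or vehicle. The list holds 34 genes. A gene counted as measured where the platform annotation gave at least 1 probe set this symbol and no other, and of several such probe sets that with the highest average level on the 12 arrays stood for the gene. In this way 32 of the 34 genes were measured, among 12393 genes with such a probe set. The proteolipid subunit gene Atp6v0c and the tetraspanin gene Cd63 had no probe set of this kind and are not analysed here. The 32 genes had 59 probe sets in all, and 17 genes had more than 1.

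HtrA2 (Omi) is a mitochondrial serine protease, found between the inner and outer membranes, and rotenone inhibits respiratory complex I and also binds tubulin. The study asked which genes respond differently to rotenone when HtrA2 is missing. Primary fibroblasts of HtrA2 knockout (KO) and wild-type (WT) mice, grown to passage 4, were exposed to 1 µM rotenone or to its vehicle for 4 h, and their RNA was hybridised to Affymetrix arrays. The 4 groups were KO with rotenone, KO with vehicle, WT with rotenone and WT with vehicle, with 3 arrays each. The strain and age of the embryos, the part of Htra2 that was removed and the number of embryos behind a culture are not stated in the labels. Nothing in the labels says that replicates came from separate cultures, so the p-values measure only the spread between these samples. The genotype entry of the 3 WT rotenone arrays reads knockout, whereas their title, source and description read wild type, and they were grouped as WT.

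Lysosomes are acidic organelles in which many hydrolases break down proteins, glycans and lipids. A vacuolar proton pump, made of a membrane sector (V0) and a cytosolic sector (V1), keeps them acidic, and heavily glycosylated membrane proteins line and protect their limiting membrane. Many lysosomal genes share an E-box in their promoters, the CLEAR element, through which transcription factors of the TFE family (TFEB, TFE3, MITF) raise their transcription when nutrients are short or lysosomes are stressed, as worked out mainly in human and mouse cells. Fibroblasts are a classic cell type for the study of lysosomal storage diseases, in which single hydrolases or membrane proteins are missing.

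Promoter windows of 4 members are shown, because the response to rotenone is described below for Neu1, Gla and Mcoln1 and because Lamp1 held the most E-boxes of the 4. Each is the 250 bases before the RefSeq start on GRCm38.p6, 5′ to 3′ on the gene's strand, with capitals marking CACGTG. The windows lie at chr17:34931003-34931252 (plus strand) for Neu1, chrX:134601006-134601255 (minus strand) for Gla, chr8:3500269-3500518 (plus strand) for Mcoln1 and chr8:13158911-13159160 (plus strand) for Lamp1.
Neu1: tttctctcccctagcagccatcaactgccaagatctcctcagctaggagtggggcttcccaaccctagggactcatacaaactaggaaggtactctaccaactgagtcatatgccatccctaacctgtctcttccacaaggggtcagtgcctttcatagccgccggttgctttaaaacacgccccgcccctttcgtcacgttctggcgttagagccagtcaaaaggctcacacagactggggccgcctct
Gla: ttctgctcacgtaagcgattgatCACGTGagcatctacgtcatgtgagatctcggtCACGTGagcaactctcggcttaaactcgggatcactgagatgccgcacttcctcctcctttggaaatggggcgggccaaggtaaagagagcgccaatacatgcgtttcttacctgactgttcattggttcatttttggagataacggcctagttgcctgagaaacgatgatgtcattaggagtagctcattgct
Mcoln1: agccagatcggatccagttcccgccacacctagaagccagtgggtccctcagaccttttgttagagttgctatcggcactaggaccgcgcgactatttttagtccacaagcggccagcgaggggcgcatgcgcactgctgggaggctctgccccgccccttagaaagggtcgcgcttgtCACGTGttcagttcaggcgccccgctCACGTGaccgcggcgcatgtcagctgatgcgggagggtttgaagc
Lamp1: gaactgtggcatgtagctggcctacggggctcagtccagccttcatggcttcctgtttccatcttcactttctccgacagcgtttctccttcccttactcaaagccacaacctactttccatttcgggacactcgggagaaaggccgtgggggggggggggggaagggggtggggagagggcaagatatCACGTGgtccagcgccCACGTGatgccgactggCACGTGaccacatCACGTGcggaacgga
The windows held CACGTG 2 times in Gla, 2 times in Mcoln1, 4 times in Lamp1 and 0 times in Neu1. Both copies in Gla lay inside TCACGTGA, at -227 and -194 from the start. In Mcoln1 the copies began at -71 and -45, and in Lamp1 at -61, -45, -28 and -15.

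RefSeq windows of 300 bases (250 before and 50 after the start) were matched for 28 of the 32 genes. CACGTG was searched in them, which reads the same on both strands, as does the longer TCACGTGA that contains it. CACGTG lay in the window of 14 of 28 members (50.0%), against 8.09% of 27025 genes. TCACGTGA was found in 7 of 28 members (25.0%), against 1.12% of genes. The 14 members with CACGTG were Atp6v0b, Atp6v0d1 and Atp6v0e of the pump, the proteases Ctsa, Ctsd, Ctsl and Lgmn, the glycosidases Gaa, Gla, Glb1 and Naglu, and the membrane proteins Lamp1, Mcoln1 and Cln3. Their median log2 difference between rotenone and vehicle was 0.12 (-0.10 to 0.54), and that of the 14 members without it was 0.08 (-0.07 to 0.70). These letters are a description of the sequence, and no binding was measured here.

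The deposited RMA values (log2 scale) ran from 3.19 to 14.59, with array medians between 7.53 and 7.58 and correlations between arrays of 0.982 to 0.997. Htra2 itself was at 7.77 ± 0.09 in KO rotenone, 7.67 ± 0.17 in KO vehicle, 9.08 ± 0.06 in WT rotenone and 9.06 ± 0.24 in WT vehicle (log2 level, SD, n = 3 each), so that the 3 arrays with the contradictory genotype entry lay with the WT vehicle arrays. A second, dimmer probe set of Htra2 was 0.40 higher in KO vehicle than in WT vehicle (log2 difference, adjusted p = 1.0), and whether either lies in the removed part is not known here. The 4 arrays numbered 3 stood apart from the other 8 on the first principal component, which held 44.7% of the variance. All 10 fibroblast markers had mean levels between 8.25 (Pdgfra) and 13.99 (Vim), and the 12 measured leukocyte markers between 4.69 (Itgam) and 8.31 (Csf1r), although probe affinities differ between probe sets. Of these 12, Csf1r, Laptm5 (7.88), Lyz2 (7.87) and Cd14 (7.46) had means outside the dimmest 40% of probe sets, and the other 8, with Ptprc (5.23) and Cd68 (6.19) among them, had means inside it. The mean level of the 12 measured leukocyte markers, which matters because macrophages are rich in lysosomes, spanned 6.56 to 6.94 in KO rotenone, 6.50 to 6.95 in KO vehicle, 6.46 to 6.93 in WT rotenone and 6.41 to 6.88 in WT vehicle, and none of them passed the test in any of the 6 contrasts of treatment and genotype. In bulk RNA, fewer cells of a type and less RNA per cell cannot be told apart.

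Across both genotypes, rotenone left most lysosomal genes near their vehicle level, and Neu1, Gla and Npc1 lay higher. Neu1, the sialidase that removes terminal sialic acids, was 1.62-fold higher and was the 1 member of 32 that passed the test. Of all 22626 probe sets, 0.102% were called higher in that comparison and 0.115% lower, and no member was called lower. Gla, the alpha-galactosidase A that is missing in Fabry disease, was 1.45-fold higher, and Npc1, the membrane protein that exports cholesterol from the lysosome, was 1.38-fold higher; both passed with the replicate number as a block and not without it. With that block 3 of 32 members rose and none fell, against 1.33% of all probe sets called higher and 1.13% lower. Of the 32 members, 26 had mean levels in the upper 40% of probe sets. Shares over all probe sets include many dimmer ones, so members and background are unlike in level. A random block called 2 members, Neu1 and Gla, beside 0.508%. The test is limma's moderated test of the mean of the rotenone effects in KO and WT cells, with Benjamini-Hochberg adjustment over all 22626 probe sets and a threshold of 0.05.

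Neu1 had log2 levels of 7.75, 8.06 and 7.51 in KO rotenone, 7.06, 7.20 and 7.19 in KO vehicle, 7.83, 7.89 and 7.68 in WT rotenone and 7.09, 6.71 and 7.29 in WT vehicle. All 6 rotenone arrays (7.51 to 8.06) lay above all 6 vehicle arrays (6.71 to 7.29). The mean log2 difference was 0.70 (SE 0.11, 95% interval 0.45 to 0.94, limma adjusted p = 0.0395), and 0.00257 was the adjusted p with the replicate block. Within same-numbered pairs the log2 difference was positive in 6 of 6, at 0.69, 0.85 and 0.32 in KO cells and at 0.74, 1.17 and 0.39 in WT cells. The smallest difference in each genotype was that of the pair numbered 3.

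The call of Neu1 depended on single arrays and on its probe set. Leaving out 1 array kept it only for KO rotenone 3, WT rotenone 3 and WT vehicle 3, and the adjusted p was 0.0608 to 0.118 without each of the other 9, with log2 differences of 0.62 to 0.76 over all 12. The 2 further probe sets of Neu1 showed log2 differences of 0.07 (limma adjusted p = 0.933) and 0.03 (adjusted p = 0.962). Both were dimmer, with mean log2 levels of 7.06 and 5.44 beside 7.44 for the one used. How far they lay above background is unknown, and differences near background are compressed. The mean over the 3 probe sets, which includes them, gave 0.26 (limma adjusted p = 0.158). Why the probe sets differ was not tested.

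**Figure D1:**
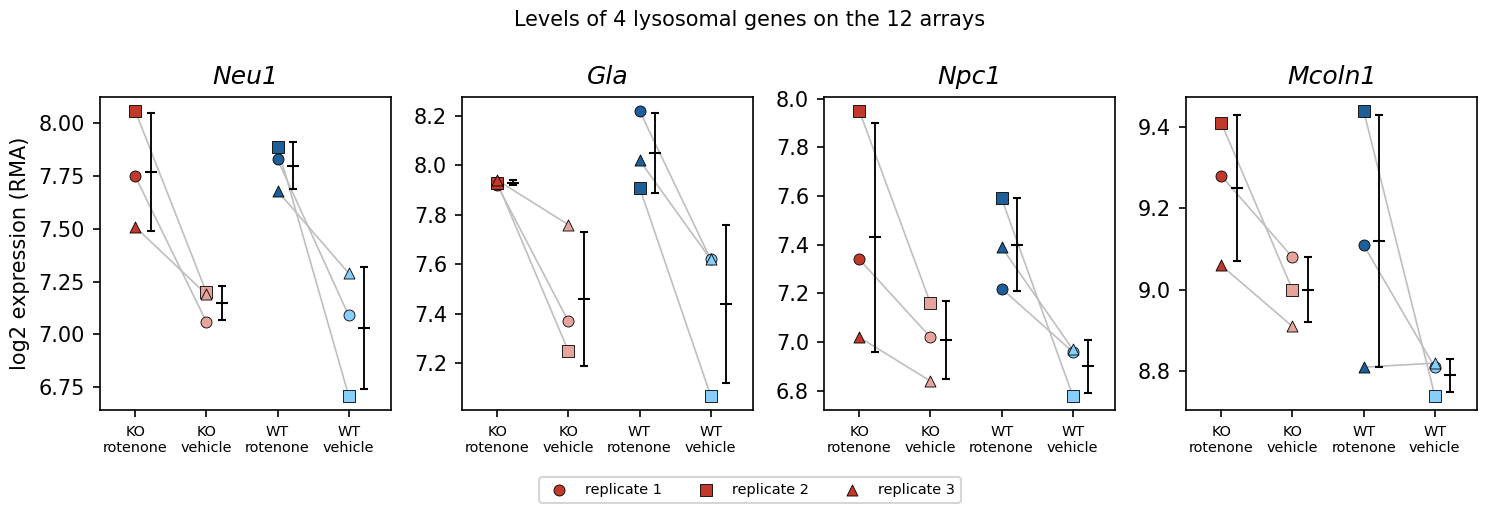
Log2 expression (RMA) of Neu1, Gla, Npc1 and Mcoln1 on each of the 12 arrays, in groups of 3; marker shapes give the replicate number, grey lines join same-numbered arrays of a genotype, and black bars are the group mean ± SD. The vertical axes do not start at 0 and differ between genes. For Neu1 and Gla every rotenone array lies above every vehicle array.

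Gla had log2 levels of 7.92, 7.93 and 7.94 in KO rotenone, 7.37, 7.25 and 7.76 in KO vehicle, 8.22, 7.91 and 8.02 in WT rotenone and 7.62, 7.07 and 7.62 in WT vehicle. As for Neu1, the rotenone arrays (7.91 to 8.22) and the vehicle arrays (7.07 to 7.76) did not overlap. Its mean log2 difference was 0.54 (SE 0.12, 95% interval 0.29 to 0.79, limma adjusted p = 0.113), and the block gave an adjusted p of 0.00416. A second probe set of Gla showed a log2 difference of 0.09 (limma adjusted p = 0.841). It was much dimmer, with a mean log2 level of 4.79 beside 7.72, and may lie too near background to show a change. Complete separation of the 6 rotenone from the 6 vehicle arrays, with rotenone higher, was seen in 2 of 32 members, Neu1 and Gla, and in 0.424% of all probe sets.

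Npc1 had log2 levels of 7.34, 7.95 and 7.02 in KO rotenone, 7.02, 7.16 and 6.84 in KO vehicle, 7.22, 7.59 and 7.39 in WT rotenone and 6.96, 6.78 and 6.97 in WT vehicle. The treatments overlapped, because the lowest rotenone array (7.02) lay below the highest vehicle array (7.16), but each rotenone array exceeded the vehicle array of its number. The mean log2 difference was 0.46 (SE 0.14, 95% interval 0.16 to 0.76, limma adjusted p = 0.342), and 0.0375 was the adjusted p with the block. Npc1 hands cholesterol on from the soluble carrier Npc2, whose mean log2 difference was 0.04 (adjusted p = 0.926).

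Of the 6 membrane proteins measured, none passed the test, with or without the block. Mcoln1, a cation channel that releases calcium from lysosomes, showed the largest log2 difference of this group, 0.29 (SE 0.10, 95% interval 0.07 to 0.51, limma adjusted p = 0.453; 0.0789 with the block). Its log2 levels were 9.28, 9.41 and 9.06 in KO rotenone, 9.08, 9.00 and 8.91 in KO vehicle, 9.11, 9.44 and 8.81 in WT rotenone and 8.81, 8.74 and 8.82 in WT vehicle. The treatments overlapped, and the WT arrays numbered 3 were nearly level. A second probe set of Mcoln1 gave 0.31 (adjusted p = 0.272; 0.042 with the block). The other 5, Lamp1 and Lamp2, the abundant glycoproteins of the limiting membrane, Scarb2 (LIMP-2), the sorting receptor of beta-glucocerebrosidase, Laptm4a, and Cln3, which is mutated in juvenile Batten disease, had log2 differences of -0.02 to 0.16.

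None of the 8 proteases passed the test. Their log2 differences ran from 0.07 (Ctsz) to 0.17 (Tpp1), with a median of 0.10 and 95% intervals that lay between -0.18 and 0.49. They were the aspartic protease Ctsd, the cysteine proteases Ctsb, Ctsl, Ctsc and Ctsz, the serine carboxypeptidase Ctsa, which also shields Neu1 in the lysosome, the asparaginyl endopeptidase Lgmn and the tripeptidyl peptidase Tpp1. Beside Neu1 and Gla, the other 6 glycosidases lay between -0.01 (Naglu, which acts on heparan sulfate) and 0.17 (Hexa, the alpha subunit of beta-hexosaminidase). Among them Glb1, the beta-galactosidase that forms a complex with Neu1 and Ctsa, was at 0.10 (adjusted p = 0.842), and Gaa, which breaks down glycogen, at 0.12 (adjusted p = 0.855). The lipid group beside Npc1 lay between 0.04 and 0.14 and held the acid ceramidase Asah1, the saposin precursor Psap, the GM2 activator Gm2a and Npc2.

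**Figure D2:**
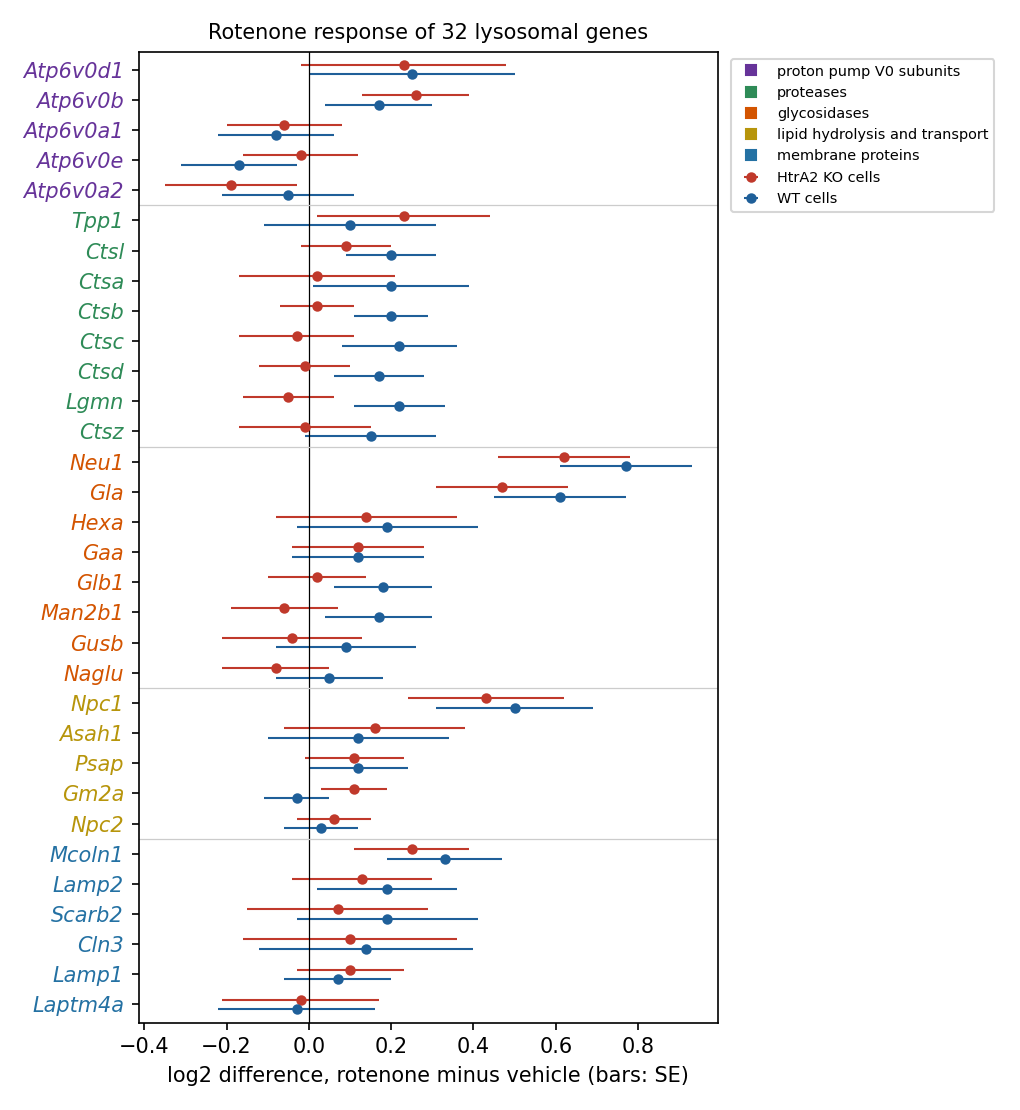
Log2 difference between rotenone and vehicle for each of the 32 genes, in KO cells (red) and in WT cells (blue), with bars of ± 1 SE from the limma model without block; genes are ordered by role and, within a role, by their mean effect. Neu1, Gla and Npc1 lie farthest to the right in both genotypes, and the bars of KO and WT overlap for each of these 3.

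No V0 subunit of the proton pump passed the test. Atp6v0d1, which joins the membrane sector to the cytosolic sector, was at a log2 difference of 0.24 (SE 0.18, limma adjusted p = 0.806; SE 0.07 and adjusted p = 0.0853 with the block). Its log2 levels were 11.35, 11.55 and 10.68 in KO rotenone, 11.21, 11.16 and 10.51 in KO vehicle, 11.33, 11.32 and 10.79 in WT rotenone and 11.05, 11.01 and 10.62 in WT vehicle. Each rotenone array exceeded its same-numbered vehicle array, but the arrays numbered 3 (10.51 to 10.79) lay below all others (11.01 to 11.55), so that the treatments overlapped.

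The proteolipid subunit Atp6v0b was at 0.22 (adjusted p = 0.595; 0.181 with the block) and Atp6v0e at -0.10 (adjusted p = 0.863), while the a-subunit isoforms Atp6v0a1 and Atp6v0a2 were at -0.07 (adjusted p = 0.910) and -0.12 (adjusted p = 0.858). Atp6v0a2 had the most negative estimate of all members. Its log2 levels were 8.73, 8.67 and 8.22 in KO rotenone, 8.81, 8.86 and 8.52 in KO vehicle, 8.63, 8.46 and 8.87 in WT rotenone and 8.81, 8.52 and 8.77 in WT vehicle, and the treatments overlapped. Its 2 further probe sets gave -0.12 and -0.15, neither of which passed.

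The median log2 difference over the 32 members was 0.11 and 27 of them were above 0. Over all probe sets the median was 0.022 with 58.6% above 0, and over all genes measured by the same rule 0.028 with 60.8%. Without the block 5 members had an unadjusted p under 0.05, beside 7.9% of all probe sets, and with it 8, beside 15.0%. Leaving out 1 array moved the median to between 0.05 (without KO vehicle 3) and 0.14. A rotenone array higher than its same-numbered vehicle array in all 6 pairs was found for 9 of 32 members, beside 6.51% of all probe sets and 7.24% of all genes measured by the same rule. They were Atp6v0d1, Ctsl, Neu1, Hexa, Gla, Asah1, Psap, Npc1 and Lamp1. No member was lower in all 6 pairs, and the share of all probe sets with that pattern was not counted.

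In KO cells alone, rotenone gave no called member by limma, beside 0.00884% of all probe sets. An unadjusted p under 0.05 was found for 3 members, beside 3.66% of all probe sets. The block called no member either (0.301% of probe sets), with 6 at that unadjusted level, beside 8.33%. The log2 differences of Neu1, Gla and Npc1 were 0.62 (adjusted p = 0.722; 0.134 with the block), 0.47 (adjusted p = 1.0; 0.180 with the block) and 0.43 (adjusted p = 1.0; 0.418 with the block). In WT cells alone no member passed without the block (0.0133% of probe sets called), and 5 had an unadjusted p below 0.05, beside 4.36%. With the block Neu1 and Gla rose, by log2 differences of 0.77 (adjusted p = 0.0326) and 0.61 (adjusted p = 0.0428), beside 0.429% of probe sets called higher. Npc1 was at 0.50 (adjusted p = 0.229 with the block).

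By role, the widest gap between the genotypes was that of the 8 proteases, with medians of 0.01 in KO cells and 0.20 in WT cells. The medians in KO and WT cells were 0.07 and 0.18 for glycosidases and 0.10 and 0.16 for membrane proteins. They were 0.11 and 0.12 for the lipid group and -0.02 and -0.05 for V0 subunits. Differences between roles were not tested. The median over the members was 0.08 in KO cells and 0.17 in WT cells, beside 0.028 and 0.019 over all genes measured by the same rule. The KO median became -0.04 without KO vehicle 3, -0.01 without KO rotenone 2, 0.04 without KO rotenone 1, 0.14 without KO vehicle 2 and 0.17 without KO rotenone 3. The WT median became 0.10 without WT vehicle 3 and was 0.14 to 0.22 without each other array. The difference between the genotypes in the rotenone effect was tested as an interaction, KO minus WT. No member passed, with or without the block, and none of all probe sets passed (0.0%). No member had an unadjusted p under 0.05 without the block, and 0.362% of all probe sets did. With no true difference anywhere, that share should lie near the p threshold of 0.05, so the model without block was strict here. A missing call therefore does not show that the effects were equal. The interaction was -0.15 for Neu1 (95% interval -0.63 to 0.34) and -0.14 for Gla (95% interval -0.65 to 0.37). Its median over the members was -0.07, beside 0.002 over all probe sets.

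Loss of HtrA2 moved no lysosomal member past the threshold, in rotenone or in vehicle. Ctsc, the dipeptidyl peptidase that activates granule serine proteases, came nearest in both. It had log2 levels of 10.09, 10.35 and 9.77 in KO rotenone, 9.63, 9.74 and 9.88 in WT rotenone, 10.16, 10.19 and 9.95 in KO vehicle and 9.62, 9.37 and 9.60 in WT vehicle. In rotenone the groups overlapped, because KO rotenone 3 was below WT rotenone 3, and in vehicle the 3 KO arrays lay above the 3 WT arrays. The log2 difference, KO minus WT, was 0.32 in rotenone (SE 0.14, limma unadjusted p = 0.0446, adjusted p = 0.835; 0.349 with the block). In vehicle it was 0.57 (1.48-fold, SE 0.14, 95% interval 0.26 to 0.88, unadjusted p = 0.00184, adjusted p = 1.0; 0.568 with the block). Without the 4 arrays numbered 3 the difference was 0.53 in rotenone (adjusted p = 0.0238 with the block) and 0.68 in vehicle (adjusted p = 0.0432; 0.0028 with the block). Without those numbered 2 it was 0.17 in rotenone (adjusted p = 0.838; 0.564 with the block) and 0.44 in vehicle (adjusted p = 1.0; 0.783 with the block), and without those numbered 1 it was 0.25 and 0.58, which did not pass. Leaving out 1 array gave 0.18 (without KO rotenone 2) to 0.47 in rotenone and 0.49 to 0.64 in vehicle, with no call. The fits without the arrays numbered 3 have 2 arrays a group, and with the block they called 0.597% of probe sets higher in rotenone and 0.446% in vehicle (0.146% in vehicle without the block). Ctsc had 1 probe set.

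In each condition Ctsc was the 1 member at an unadjusted p under 0.05, beside 5.57% of all probe sets in rotenone and 1.04% in vehicle. The share in vehicle lay below the p threshold, so the model without block was strict there. Missing calls in vehicle do not show equal levels. By adjusted p limma called 0.00442% of all probe sets in each. The block called no member either, beside 0.0398% of probe sets in rotenone and 0.0177% in vehicle. The median genotype difference over the members was 0.04 in rotenone and 0.09 in vehicle, beside 0.017 and 0.007 over all probe sets. In rotenone 21 of 32 estimates were above 0, beside 54.3% of all probe sets, and in vehicle 28, beside 53.3%. Leaving out 1 array gave medians of -0.02 (without KO rotenone 2) to 0.14 (without KO rotenone 3) in rotenone, also below 0 without WT rotenone 3. In vehicle it gave 0.03 (without KO vehicle 2) to 0.20 (without KO vehicle 3), with 0.04 without KO vehicle 1, 0.06 without WT vehicle 3 and 0.14 without WT vehicle 1. Without all arrays numbered 2 both medians were -0.02. The 3 KO vehicle arrays lay above the 3 WT vehicle arrays for 3 members, Ctsb, Ctsc and Mcoln1, beside 2.15% of all probe sets. The same separation in rotenone was seen in no member, beside 7.92% of probe sets, and no member showed all 6 KO arrays above all 6 WT arrays, beside 0.141%.

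Hexa was the 1 member of 32 whose KO array was higher than the same-numbered WT array in all 6 pairs, by 0.07 to 0.35. That count is close to the share of all probe sets with this pattern, 3.04%. Its mean log2 differences of 0.12 in rotenone (adjusted p = 0.921) and 0.17 in vehicle (adjusted p = 1.0) did not pass. The most negative difference in rotenone was that of Lgmn, at -0.22 (adjusted p = 0.835). In vehicle it was that of Gm2a, at -0.04 (adjusted p = 1.0), with log2 levels of 7.97, 8.02 and 7.88 in KO vehicle and 8.02, 8.00 and 7.96 in WT vehicle, which overlapped. Gm2a was at 8.07, 8.17 and 7.97 in KO rotenone and at 8.02, 7.96 and 7.90 in WT rotenone, and its range over all 12 arrays, 0.29, was the narrowest among the members.

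**Figure D3:**
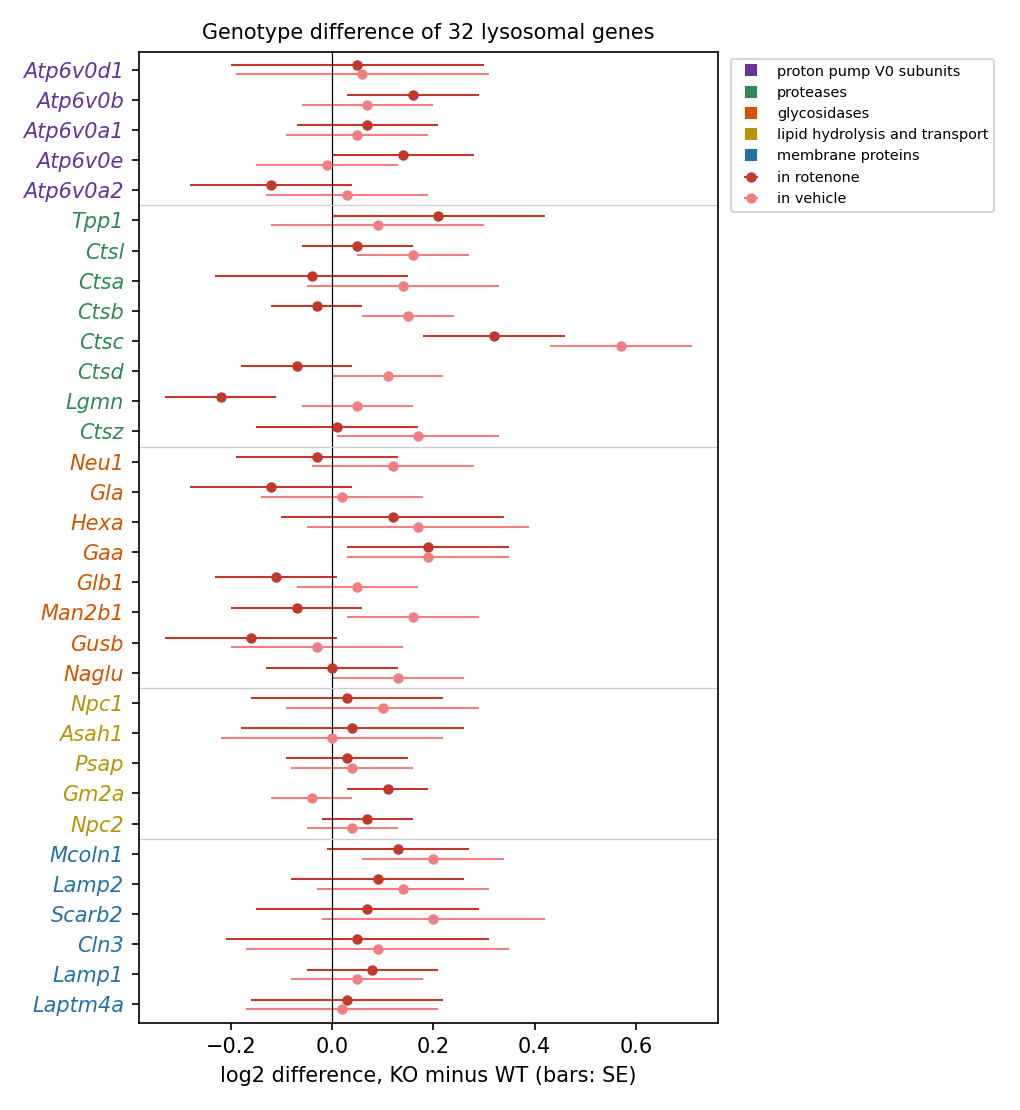
Log2 difference between KO and WT for each of the 32 genes, in rotenone (dark red) and in vehicle (light red), with bars of ± 1 SE from the limma model without block; gene order is that of the plot of rotenone responses. Ctsc lies farthest to the right in both conditions, at 0.32 and 0.57.

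Many of these genes differed between replicate numbers. The 4 arrays numbered 3, set against the 8 numbered 1 or 2 within the groups, differed for 12 of 32 members by limma: 10 were lower and 2 higher, beside 10.1% of all probe sets called lower and 11.7% higher. The lower ones were Atp6v0d1 (-0.60), Hexa (-0.51), Scarb2 (-0.47), Asah1 (-0.46), Laptm4a (-0.42), Ctsa (-0.41), Tpp1 (-0.41), Lamp2 (-0.31), Gaa (-0.26) and Lamp1 (-0.23), as log2 differences. The higher ones were Cln3 (0.60) and Gusb (0.35), the beta-glucuronidase. The median over the members was -0.19, beside -0.044 over all probe sets. On the same arrays 7 of the 12 measured leukocyte markers were called higher and none lower, among them Csf1r, Lyz2, Cd14 and Cd68, and 3 of 6 epithelial markers, Krt8, Krt18 and Krt19, were called higher. Of the 10 fibroblast markers 2 were higher and 2 lower. The mean level of the leukocyte markers was 6.88 to 6.95 on the arrays numbered 3 and 6.41 to 6.59 on the others. The part of these markers in the differences of the members was not tested. The labels do not say what the replicate number stands for, and the comparison was made after these arrays had been seen to stand apart.

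For 5 members, Atp6v0d1, Hexa, Asah1, Lamp1 and Laptm4a, all 4 arrays numbered 3 lay below all the other 8, beside 4.56% of probe sets. For 2 of 32 members, Cln3 and Gusb, they lay above, a count close to the share of all probe sets, 6.57%. Cln3 had log2 levels of 6.38, 6.26 and 7.00 in KO rotenone, 6.22, 6.10 and 7.03 in KO vehicle, 6.27, 6.48 and 6.74 in WT rotenone and 6.26, 6.12 and 6.70 in WT vehicle. In each group the array numbered 3 was the highest.

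**Figure D4:**
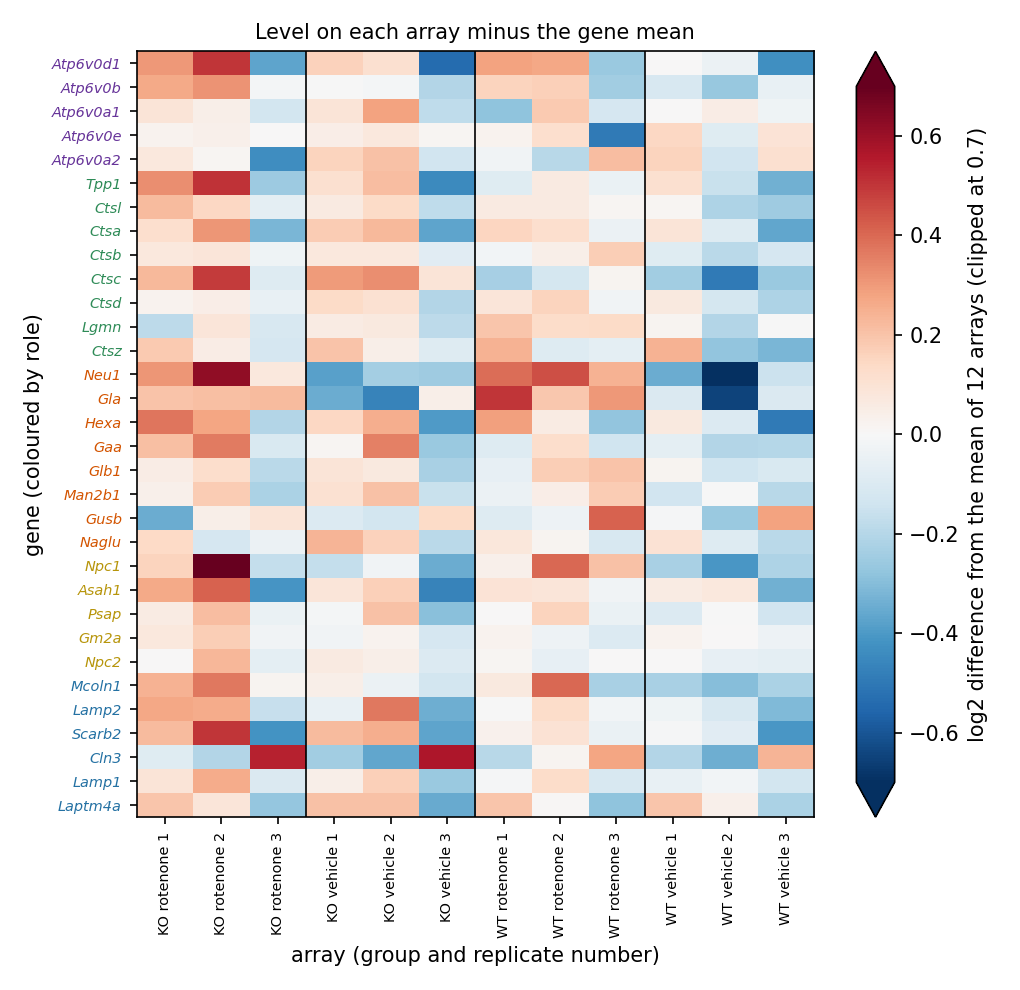
Level of each of the 32 genes on each of the 12 arrays as a log2 difference from the gene's mean over the arrays (red higher, blue lower, clipped at 0.7); columns are the 4 groups with replicates 1 to 3, separated by black lines, and genes are coloured by role. The columns numbered 3 are mostly blue, with Cln3 and Gusb red in them. WT rotenone 3 is the least blue of these columns, with Ctsb, Glb1, Man2b1 and Atp6v0a2 among the genes red in it. Neu1 and Gla are red in the rotenone columns and mostly blue in the vehicle columns.

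Leaving out all 4 arrays numbered 3 left 2 arrays a group and gave more calls for rotenone. With the block 5 members then rose in the mean effect, beside 2.51% of probe sets: Neu1 (0.87), Gla (0.67), Npc1 (0.54), Mcoln1 (0.40) and Atp6v0b (0.33). Without the block all but Atp6v0b of these were called, beside 1.29% of probe sets. In KO cells Neu1, Gla and Npc1 then rose with the block (0.756% of probe sets called higher) and Neu1 without it (0.172%). In WT cells Neu1, Gla, Npc1 and Mcoln1 rose with the block (1.03%) and Neu1 without it (0.358%). Without replicates 1 or 2 instead, no member was called, and the log2 differences of Neu1 were 0.68 and 0.54 (adjusted p = 0.128 and 0.0809 with the block).

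Other lysosomal genes, from lists chosen with earlier results of these data known, were set beside the members for the mean rotenone effect. Of 21 measured of 29 further hydrolases and activators, none passed without the block (1 at an unadjusted p under 0.05) and Galc, the galactosylceramidase, rose with it (log2 difference 0.32, adjusted p = 0.0224). The median of that list was 0.05. Of 11 measured of 17 further membrane proteins, none passed without the block (3 at an unadjusted p under 0.05). Ctns, the cystine exporter, rose with it (0.45, adjusted p = 0.00707), and the median was 0.11. Beside both lists, 7.9% of all probe sets had an unadjusted p under 0.05 without the block. By adjusted p 0.102% were called higher without the block and 1.33% with it. The median over all genes measured by the same rule was 0.028.

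All 10 cytosolic V1 and accessory subunits of the pump on the list were measured, and Atp6v1b2 (0.78, adjusted p = 0.018) and Atp6v1c1 (0.59, adjusted p = 0.0156) rose without the block, beside 0.102% of all probe sets. With it Atp6v1a (0.34), Atp6v1d (0.38) and Atp6ap2 (0.40) rose as well, beside 1.33%. Atp6v1f (0.02), Atp6v1g1 (0.09), Atp6v1e1 (0.15) and Atp6ap1 (0.15) lay within the range of the V0 subunits, -0.12 to 0.24. Atp6v1h lay above that range, at 0.28 (limma adjusted p = 0.0512 with the block). The median was -0.07 over the 5 V0 genes among the members, whose 95% intervals lay between -0.36 and 0.63. Over the 10 V1 and accessory genes it was 0.31. The further V0 genes Tcirg1 (0.00) and Atp6v0e2 (0.03) were counted above with the further membrane proteins and are not in the V0 median. The difference between the sectors was not tested.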

How the data were processed

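RNA from 12 samples was measured on Affymetrix arrays. Each probe set has 1 log2 value per array, which the authors deposited. RMA made these values, per the submitters' processing notes. The RMA version was not given in the sources used here. Array processing of this kind compresses differences near background and hides a change shared by most transcripts. No detection calls were used, so how far a probe set lay above background is unknown. Precision is limited by the 3 arrays a group.

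Of 22690 probe sets, 64 array controls were left out and 22626 were fitted in 1 limma model (limma 3.58.1, R 4.3.3) of the 4 groups. It used eBayes and Benjamini-Hochberg adjustment. The fitting code was run on simulated data with noise drawn independently for each array. Those data held no difference between replicate numbers, so they cannot show how the model without block does on the arrays used here. Without a block, differences between replicate numbers count as spread within the groups. The annotation gave 1 symbol to 20380 probe sets, several to 691 and none to 1555. Contrasts were rotenone against vehicle (mean, KO, WT), KO against WT in each condition, and the interaction.

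The labels number the replicates 1 to 3 in each group. Deviations from the group means correlated at 0.289 to 0.829 in 18 of 18 same-numbered pairs of arrays. Pairs of an array numbered 1 with an array numbered 2 ran from -0.0535 to 0.476, so some were as high as same-numbered pairs. Pairs of an array numbered 3 with another number were all negative, at -0.688 to -0.262. Deviations cancel out within a group, so where same-numbered pairs are positive, the other pairs are negative on average. The negative sign is therefore no separate evidence. Set beside the pairs of numbers 1 and 2, number 3 stood apart clearly, and numbers 1 and 2 were told apart less well. No label says which arrays go together. Blocked values stand beside results whose call they change. The main model had no block. The replicate number as a block was an alternative, as were a random block, leaving out arrays or replicate numbers, trend with robust fitting, leaving out the dimmest 40% of probe sets, renormalization and the mean over a gene's probe sets.

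The members and the other lists were chosen with earlier results of these data known. Values on each array are given for members past 0.05 in any of the 6 contrasts with or without the block and for the largest rise and fall in the mean rotenone effect and in the vehicle genotype difference. Mcoln1, Atp6v0d1 and Cln3 were added after their values were seen. Promoter windows come from RefSeq (GRCm38.p6). Atp6v0a2, Ctsb, Npc1 and Asah1 had no matched window.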

Additional observations from a re-analysis of the deposited data

Results flagged for a closer look

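Man2b1, the lysosomal alpha-mannosidase, was lower with rotenone in every KO pair of same-numbered arrays (log2 differences of -0.06, -0.03 and -0.07). It was higher in every WT pair (0.09, 0.05 and 0.38), most in the pair numbered 3. The share of all probe sets with such a split was not counted. The KO and WT effects differed by -0.23. The interaction term in limma did not pass (unadjusted p = 0.222, adjusted p = 1.0, and unadjusted p = 0.152 with the replicate block). A second, dimmer probe set of Man2b1 had a mean rotenone effect of 0.19 over both genotypes (limma adjusted p = 0.671, and 0.17 with the block).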

How the results depend on the processing

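The count of members called in the mean rotenone effect was 1 and became 3 with the replicate block, 2 with a random block and 0 with the mean over a gene's probe sets. Leaving out 1 array gave 0 to 1. Leaving out replicate 1, 2 or 3 in all groups gave 0, 0 and 5 with the replicate block and 0, 0 and 4 without it, the fits without the block having been added after the data were seen. For rotenone in KO cells the count of 0 became 3 (with the block) or 1 (without it) when replicate 3 was left out. For rotenone in WT cells 0 became 2 with the block, and 4 (with it) or 1 (without it) when replicate 3 was left out. For genotype in vehicle 0 became 1 without replicate 3, with or without the block, and for genotype in rotenone 1 with the block. The block changed no other count. All probe sets called in the mean effect numbered 49, against 557 with the block. The median over the members in KO cells (0.08) was -0.04 to 0.17 when 1 array was left out and 0.05 without replicate 2, with or without the block, and that of the interaction (-0.07) was -0.16 to 0.04. Over the 25 alternatives run, Neu1 kept its sign at 0.26 to 0.87 (adjusted p 2.69e-07 to 1.0, under 0.05 in 11), Gla at 0.31 to 0.67 (under 0.05 in 4) and Npc1 at 0.29 to 0.57 (under 0.05 in 3). Among the single genes refitted, those whose sign changed had not passed: Gm2a in vehicle (0.06 with the mean over probe sets, -0.07 to 0.00 with 1 array left out) and the interactions of Neu1 (-0.29 to 0.01) and Gla (-0.24 to 0.05). The medians for genotype also changed sign, in rotenone (-0.02 to 0.14 with 1 array left out) and, without replicate 2, in vehicle (-0.02). The 12 members called for replicate number 3 became 8 to 16 when 1 array was left out and 11 to 17 otherwise. The cause of these changes was not tested. Where a fit has 2 arrays a group, the spread is pooled over the groups.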

Other observations

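Genes that deliver hydrolases to the lysosome or regulate lysosomal transcription were also read in the mean rotenone effect. Of 9 measured of 12 mannose-6-phosphate and sorting genes, none passed in limma without the block (1 at an unadjusted p under 0.05), and the adaptor Gga2 rose with it (log2 difference 0.34, adjusted p = 0.0303). Their median was 0.03, beside 0.028 over all genes measured by the same rule. Of all probe sets, 7.9% had an unadjusted p under 0.05 without the block and 1.33% were called higher with it. Of 5 measured of 7 TFE factors and regulators, Flcn rose without the block (0.82, adjusted p = 0.00313), beside 0.102% of all probe sets. Its product folliculin acts on the Rag GTPases. Flcn averaged 9.48 in KO rotenone, 8.72 in KO vehicle, 9.57 in WT rotenone and 8.69 in WT vehicle (log2 level, n = 3 each). Rragc, which encodes one of those GTPases, rose with the block (0.47, adjusted p = 0.00205), beside 1.33% of all probe sets. Values for these genes share the 12 arrays with those of the members, and their relation to the members was not tested.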
